A study of Mus musculus with 22 samples.

Results

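The genes described here encode 9 complement components and receptors: the C1q chains C1qa, C1qb and C1qc, the central component C3, the alternative pathway stabiliser properdin (Cfp), the anaphylatoxin receptors C3ar1 and C5ar1, and the pair of chains of complement receptor 3, Itgam (CD11b) and Itgb2 (CD18). They were taken by symbol from an expression table of 23953 gene symbols (31641 RefSeq transcripts), where all 9 were found. Transcript values were read in all 10 RNA libraries, and chromatin peaks within 20 kb of each start in the 12 peak lists.

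The series asked how mutant huntingtin, expanded in Huntington's disease by a long run of glutamines, affects myeloid cells and their lineage-determining transcription factors. BV2, an immortalised mouse microglial line that keeps its own mouse huntingtin, was transduced with a pCDH lentiviral vector carrying a CMV promoter: empty, with an N-terminal human huntingtin fragment of 15 glutamines (the wild-type fragment), or with the same kind of fragment of 128 glutamines (the mutant fragment). Each construct has 2 RNA libraries and 1 library each for H3K4me2 (a histone mark of promoters and enhancers), PU.1, C/EBPα and C/EBPβ, the latter 4 all labelled 24 h. Primary cells were adult microglia and bone marrow derived macrophages of mice with huntingtin Q7/7 (wild-type) or Q175/175 (mutant, both alleles), 1 RNA library each. Microglia came from cortex, striatum and hippocampus and were sorted as CD11b-positive, CD45-low cells, so the product of Itgam was itself a sorting marker; macrophages were grown in L-cell conditioned medium. The sources used here do not give ages, or how many animals or cultures stand behind a library. The spread behind every p-value is therefore that between single libraries and may be technical. No fit held 2 libraries alike in construct and time, or in genotype and cell type. In the BV2 fits the spread also holds how far construct differences vary between times. In the genotype fit it holds how far the genotype difference varies between cell types, as a value shared by all genes. In the cell source fit it holds differences of genotype, construct and time. The second BV2 library of each construct is labelled 48 h and headed 6 h in the expression table; it is called the second time, and no order of times is assumed. The transgene itself was not analysed here.

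Values are RPKM, read density scaled to transcript length and library depth. The whole-read steps of the low values put the depth of the 6 BV2 libraries at 10.8 to 14.0 M reads and that of the 4 primary ones at 28.8 to 47.8 M. All 10 microglia markers fixed for this check were at 1 RPKM or more in both microglia libraries (summed RPKM 3826 to 4620), while the BV2 libraries lacked most of them (25.7 to 119 summed), with Siglech at 0 in every BV2 library and P2ry12 and Cx3cr1 at or below 0.0740. BV2 cells are therefore called by the name of the line. Neutrophil markers were present in the sorted microglia and differed between the genotypes; their values stand beside the genotype results. Expression is from bulk RNA, in which fewer cells of a type and less RNA per cell cannot be told apart.

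Complement is a cascade of plasma and locally made proteins. C1q, built from A, B and C chains together, binds antibodies, dying cells and other surfaces and opens the classical pathway; properdin steadies the alternative pathway enzyme; both routes cleave C3, the hub of the cascade. The small fragments released from C3 and C5 act on the receptors C3ar1 and C5ar1, and C3 fragments left on a surface are bound by complement receptor 3, made of CD11b and CD18. In the brain, microglia are the main source of C1q and use complement receptor 3 to take up material, including synapses during development.

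**Figure D1:**
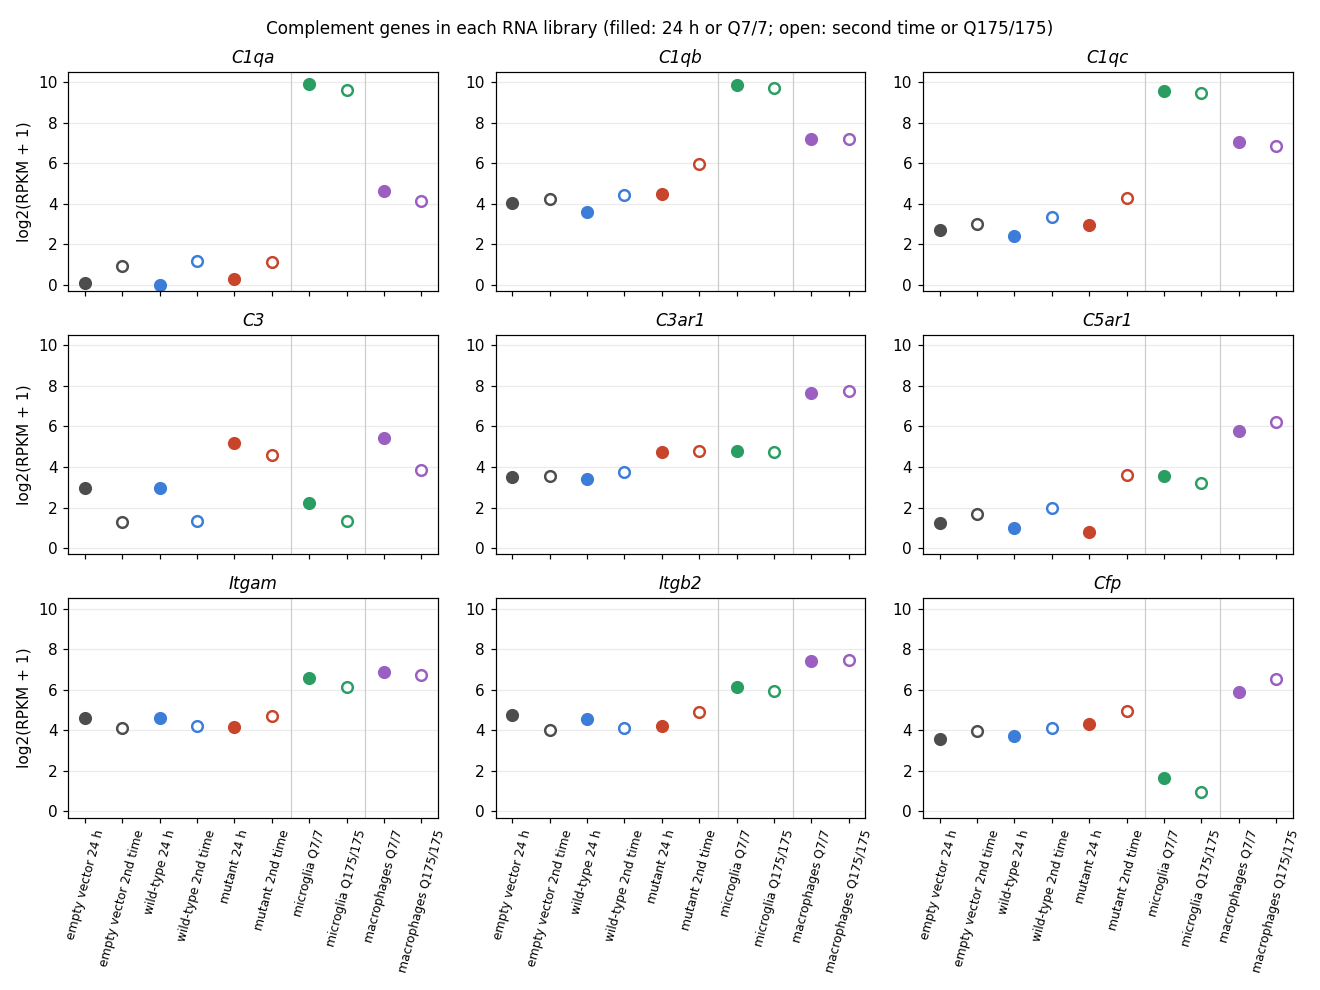
Level of each complement gene, as log2(RPKM + 1), in the 10 RNA libraries (grey empty vector, blue wild-type fragment, red mutant fragment, green microglia, purple macrophages; filled points are 24 h or Q7/7 and open points the second time or Q175/175). The C1q genes are highest in microglia, the other genes reach their highest level in macrophages, and C3 in the mutant-fragment libraries (23.1 and 35.2 RPKM) lies within the range of the macrophages.

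C1qa, C1qb and C1qc lie side by side on chromosome 4 (mm9, minus strand), with starts at 136454759, 136442092 and 136448829, so that neighbouring starts are 5930 and 6737 bp apart. In primary microglia the 3 chains stood at similar levels per length: C1qa at 939.7 RPKM in Q7/7 and 779 in Q175/175 cells, C1qb at 915 and 829.5, and C1qc at 753 and 703. In macrophages C1qb (146 and 145) and C1qc (129.9 and 116) were well below microglia, and C1qa was lower still (23.7 and 16.4). The C1qa share of the summed RPKM of the 3 chains was 36.0% and 33.7% in microglia but 7.93% and 5.91% in macrophages.

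In the cell source fit with limma (4 BV2 control, 2 microglia and 2 macrophage libraries, with genotypes, control constructs and times pooled as replicates), all 3 chains were higher in microglia than in macrophages. The difference on the log2(RPKM + 1) scale was 5.37 ± 0.408 (SE) for C1qa, 2.57 ± 0.253 for C1qb and 2.56 ± 0.281 for C1qc, with limma adjusted p-values of 1.83e-05, 6.75e-05 and 0.000124. Among all genes tested, the median of this difference was -0.43, and it was -0.23 for microglia and 0.27 for macrophages against BV2 controls, so that values as deposited are shifted between the sources. Against the BV2 controls, microglia were higher by 9.19 ± 0.353 for C1qa, 5.69 ± 0.219 for C1qb and 6.64 ± 0.244 for C1qc (limma adjusted p of 2.38e-07 for the first pair and 1.91e-07 for C1qc).

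BV2 cells held C1qb and C1qc but hardly any C1qa. At 24 h C1qa stood at 0.0830 RPKM (1 implied read) in empty-vector cells, 0 in wild-type-fragment cells, which with 3 reads as the limit allows up to 0.211 RPKM, and 0.203 (3 reads) in mutant-fragment cells. At the second time it was 0.928, 1.25 and 1.21 RPKM (14, 17 and 14 reads). All 3 second-time libraries lay above all 3 libraries of 24 h, and the limma difference between the times was 0.96 ± 0.144 (SE), adjusted p 0.0620. The C1qa share of the C1q sum stayed between 0% and 3.99% in the 6 BV2 libraries, while C1qb made up 66.1% to 75.9%. The ratio of C1qb to C1qc was 2.21 to 3.29 in BV2 libraries and 1.12 to 1.26 in primary cells, without overlap.

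**Figure D2:**
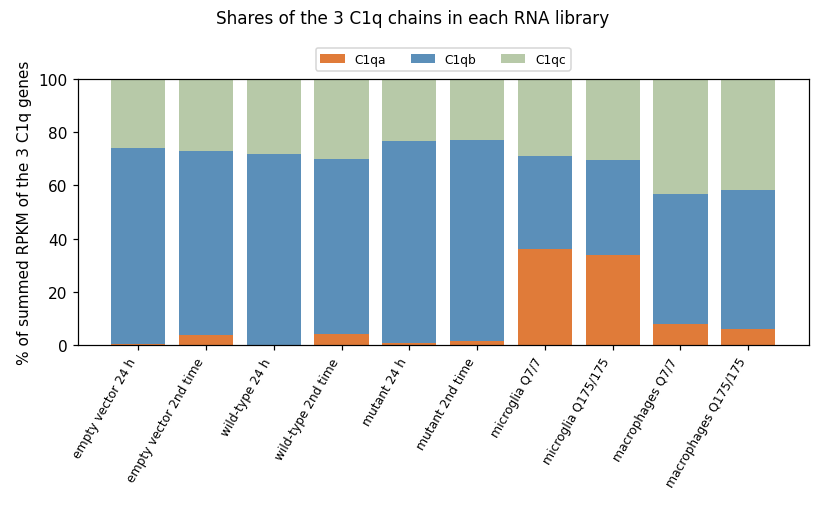
Share of C1qa, C1qb and C1qc in their summed RPKM (stacked bars, in %) in each RNA library. C1qa makes up 33.7% and 36.0% in microglia, 5.91% and 7.93% in macrophages and at most 3.99% in BV2 cells.

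C1qb in BV2 cells read 15.6 (24 h) and 17.7 RPKM (second time) in empty-vector cells, 11.1 and 20.6 in wild-type-fragment cells, and 21.6 and 61.0 in mutant-fragment cells. Both mutant values lay above all 4 controls, the second-time library by far the most. C1qc read 5.49 and 6.87 RPKM in empty-vector cells, 4.34 and 9.33 in wild-type-fragment cells, and 6.67 and 18.5 in mutant-fragment cells. Here the 24 h mutant value lay inside the range of the controls. With construct and time as terms (6 libraries, 2 residual degrees of freedom), limma put the mutant fragment above the mean of both controls by 1.15 ± 0.285 (SE) for C1qb, adjusted p 0.147, and 0.75 ± 0.251 for C1qc, adjusted p 0.210. Neither passed the threshold of 0.05, and C1qa differed by 0.15 ± 0.153, limma adjusted p 0.620.

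PU.1, the transcription factor that defines myeloid cells, had a peak over the 300 bases around the start (250 before to 50 after) of each C1q gene in all 3 constructs. Counted in bp from the start, with negative positions upstream, the peaks were centred at -14 for C1qa, 27 for C1qb and -195 for C1qc. H3K4me2 lay over this window at all 3 genes in all 3 constructs as well. No C/EBPα peak lay within 20 kb of any C1q start. For C/EBPβ there was none in empty-vector cells, against 2 sites in wild-type-fragment cells (at 1506 and -141 from the C1qb start) and the first of these in mutant-fragment cells. The number of C/EBPβ peaks called in the whole genome also differed between these libraries (35964, 69522 and 47893), and its part in these absences was not tested.

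Promoter sequences from RefSeq (GRCm38.p6) were found for 7 of the 9 genes. Those of C1qb (chr4:136886201-136886450, minus strand) and C1qc (chr4:136892915-136893164, minus strand) are shown because they hold the PU.1 core and a PU.1 peak lies over or beside them. C3ar1 and Cfp also had a PU.1 peak at the start, without the core. The letters are the 250 bases before the annotated start, 5′ to 3′, with the PU.1 core AGGAAGT, searched on both strands, in capitals (here read as ACTTCCT on the strand shown).
C1qb: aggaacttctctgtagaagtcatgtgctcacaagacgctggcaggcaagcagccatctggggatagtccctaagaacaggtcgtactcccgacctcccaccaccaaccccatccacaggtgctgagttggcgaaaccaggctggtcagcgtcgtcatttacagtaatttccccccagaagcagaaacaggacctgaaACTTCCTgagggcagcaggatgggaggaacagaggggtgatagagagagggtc
C1qc: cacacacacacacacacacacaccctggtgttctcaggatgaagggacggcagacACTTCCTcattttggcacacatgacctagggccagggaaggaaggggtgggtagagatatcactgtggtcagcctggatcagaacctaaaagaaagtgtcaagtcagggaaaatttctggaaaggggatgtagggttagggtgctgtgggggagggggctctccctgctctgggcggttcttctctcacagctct
The core stands at -53 to -47 from the C1qb start and at -195 to -189 from the C1qc start. It occurs in 7.7% of 32851 promoters of this length and in 3 of the 7 sequences here. Since the peaks are on mm9 and the gene spans of C1qb and C1qc differ between the builds by 43 and 23 bp, a match and a peak centre can be set side by side only to within such distances.

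C3 (chromosome 17, mm9 57343396 to 57367559, minus strand) had the largest difference between BV2 constructs among the 9 genes. At 24 h and at the second time it read 6.75 and 1.44 RPKM in empty-vector cells, 6.94 and 1.55 in wild-type-fragment cells, and 35.2 and 23.1 in mutant-fragment cells. Both mutant libraries lay above every control, and the controls of each time nearly coincided. Set against the mean of the controls on the log2(RPKM + 1) scale, the 24 h mutant library stood 2.21 higher and the second-time one 3.27, against 0.035 and 0.062 between the controls themselves. In the limma fit it was 2.74 ± 0.276 (SE), 6.67-fold, with an adjusted p of 0.0562, just outside the threshold (unadjusted p 0.000206). With any 1 of the 6 libraries left out the difference was 2.21 to 3.27. Such fits leave 1 construct with a single library, so no p-value is given for them. With no filter on low values the limma adjusted p was 0.318.

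Between the times C3 and the C1q chains differed in opposite directions, with none past the threshold. In both controls C3 was lower at the second time, with a difference of -1.66 in empty-vector, -1.64 in wild-type-fragment and -0.59 in mutant-fragment cells, each from 1 library a side. The limma value over all 3 constructs was -1.30 ± 0.261 (SE), adjusted p 0.0724. With the mutant fragment at 23.1 RPKM at that time, the gap between constructs was wider there.

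Markers of other cell types were read in the same libraries, and for the mutant fragment against both controls limma called none of 6 tested macrophage and monocyte markers and none of 5 tested neutrophil markers (4 of each at an unadjusted p under 0.05). Over all 10350 genes tested, limma called 0.348%, and 20.2% had an unadjusted p under 0.05. The 9 measured macrophage and monocyte markers summed to 558 to 817 RPKM in the 4 control libraries and 1206 and 1558 in the mutant ones. Most of this was Lyz2, a lysozyme (470.4 to 622 against 1070 and 1398), while F13a1 was lower in the mutant libraries (0.113 and 0.024 against 2.13 to 11.2), Cd163 was at 0 in all BV2 libraries, and Ccr2 and Ly6c2 were at 0 in the controls and at most 0.234 in the mutant ones. Emr1 was higher in the mutant libraries (85.5 and 84.6 against 27.5 to 65.3). The mutant values of Mrc1 (34.2 and 32.5 against 34.1 to 87.4), Ms4a7 (5.62 and 3.22 against 0.994 to 4.06) and Csf1r (10.8 and 39.7 against 22.3 to 29.3) did not both lie on the same side of all controls. Among neutrophil markers Lcn2, an acute-phase protein that many cell types make, was at 219 RPKM in the mutant 24 h library and 1.98 at the second time, against 0.084 to 0.180 in the controls, while S100a9, Ltf and Mpo were at 0 in all BV2 libraries. Mmp9 was also higher in the mutant libraries (1.43 and 1.79 against 0.475 to 0.859). Mmp8 (0.269 and 0.571 against 1.61 to 2.71) and Cxcr2 (0.072 and 0.092 against 0.235 to 1.24) were lower there. S100a8 went both ways (0.376 and 3.84 against 0.785 to 2.58). Their part in the C3 difference was not tested.

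In primary cells C3 was at 3.65 RPKM in Q7/7 and 1.55 in Q175/175 microglia and at 41.5 and 13.5 in macrophages. Q175/175 was the lower library in both cell types, by 0.87 in microglia and 1.55 in macrophages on the log2(RPKM + 1) scale. In the genotype fit (4 libraries with cell type as a term, 1 residual degree of freedom) limma gave a difference of -1.21 ± 0.263 (SE), adjusted p 0.00330, and C3 was called lower in Q175/175 cells by that test. It was the only member to pass, where 0.337% of 10687 genes passed, in a fit that gives every gene the same standard error. Under quantile normalization the limma adjusted p was 0.184, and with median-of-ratios scaling it was 0.239. It reached 1.0 with a pseudocount of 5 and with no filter on low values, so the call does not hold under those settings. In the same fit 5 of 11 tested neutrophil markers passed as lower, with S100a9 at -1.41 and S100a8 at -1.29 (limma adjusted p 0.000141 and 0.000929). No gene at all was called under the 4 settings just named, so these calls are lost there too; their part in the C3 value was not tested. Macrophages were above microglia by 2.85 ± 0.751 and above BV2 controls by 2.49 ± 0.651 (limma adjusted p of 0.0114 and 0.00991), calls that were lost without the Q7/7 macrophage library (0.0876 and 0.113), with no filter on low values (0.0643 and 0.0634), with the mutant libraries among the BV2 cells (0.0727 and 0.195) and, for microglia, without the Q175/175 library (0.0759).

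Around C3, both C/EBP factors had a peak at the start in all 3 constructs, centred at -30 for C/EBPα and -27 for C/EBPβ. It was the only one of the 9 genes with C/EBPα over the 300 bases around its start in all 3 constructs, a state found in 2.73% of 10350 expressed genes. PU.1 had no peak over that start; its nearest site in all 3 constructs lay at -1812. A PU.1 site at -17478 was called in mutant-fragment cells only, one at 8317 in empty-vector cells only and one at 5733 in wild-type-fragment cells only. A C/EBPα site at -2802 and a C/EBPβ site at 9478 were called in both controls and not with the mutant fragment. Of the other C/EBPβ sites, those at -2823 and -3411 were called in all 3 constructs and one at 8817 in empty-vector and mutant-fragment cells. A C/EBPα site at -3470 was called in wild-type-fragment cells only. The mutant-fragment C/EBPα library had the fewest peaks of the 3 (9117). The C3 promoter (chr17:57228137-57228386, minus strand, GRCm38.p6) is shown because of the C/EBP peaks, with the C/EBP motif TTGCNNAA, searched on both strands, in capitals.
C3: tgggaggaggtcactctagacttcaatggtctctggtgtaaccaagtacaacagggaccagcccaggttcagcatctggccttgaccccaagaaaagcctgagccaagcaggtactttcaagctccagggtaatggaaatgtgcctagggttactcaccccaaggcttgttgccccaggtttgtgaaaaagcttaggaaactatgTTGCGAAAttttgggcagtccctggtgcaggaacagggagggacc
The motif stands at -45 to -38, the gene spans of the builds differ by 6 bp, and 9.6% of all promoters of this length hold a match. C3 was the only one of the 7 sequences with one.

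Cfp (chromosome X, mm9 20502661 to 20508650, minus strand) encodes properdin. It was at 59.2 and 92.6 RPKM in Q7/7 and Q175/175 macrophages, at 2.12 and 0.942 in microglia, and at 10.8 to 16.3 in the BV2 controls, so that the 3 sources did not overlap. The difference of microglia from macrophages was -4.93 ± 0.304 (SE) and from BV2 controls -2.54 ± 0.264 on the log2(RPKM + 1) scale, with limma adjusted p-values of 6.52e-06 and 5.78e-05. It was the only member that limma called lower in microglia than in BV2 controls.

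With the mutant fragment Cfp read 18.9 RPKM at 24 h and 30.1 at the second time. Empty-vector cells gave 10.8 and 14.6 and wild-type-fragment cells 12.2 and 16.3, so that both mutant libraries lay above all controls. The difference was 0.80 ± 0.146 (SE), limma adjusted p 0.111. PU.1 had a peak centred at -21 from the Cfp start in all 3 constructs, and C/EBPβ one centred at -79 in wild-type-fragment and mutant-fragment cells but not with the empty vector, the C/EBPβ library with the fewest peaks.

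C3ar1, the C3a receptor (chromosome 6, mm9 122797158 to 122806175, minus strand), differed between constructs by a similar amount at both times. It read 10.4 and 10.8 RPKM in empty-vector cells (24 h and second time), 9.48 and 12.5 in wild-type-fragment cells, and 25.8 and 27.1 in mutant-fragment cells. The mutant values stood apart from all controls at both times. The 24 h libraries gave a difference of 1.30 and the second-time libraries 1.15, and limma gave 1.23 ± 0.152 (SE), 2.34-fold, with an adjusted p of 0.0697. With any 1 of the 6 libraries left out the difference was 1.15 to 1.30, in fits that leave 1 construct with a single library.

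Macrophages held the most C3ar1, 200.5 and 216 RPKM, against 26.5 and 25.6 in microglia. Microglia differed from macrophages by -2.95 ± 0.153 (SE) and from BV2 controls by 1.21 ± 0.132, limma adjusted p 2.90e-06 and 7.81e-05. The level of the mutant-fragment BV2 libraries was close to that of microglia, and the latter call was lost when the mutant libraries were counted among the BV2 cells (limma adjusted p 0.0939). PU.1 had a peak centred at 49 from the C3ar1 start in all 3 constructs, and C/EBPα and C/EBPβ had peaks at -6950 and -6926 in all 3. A PU.1 peak beside these, at -6922, was called only in mutant-fragment cells, as was another at -18251, while PU.1 peaks at -4306 and 10972 were called only with the empty vector.

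C5ar1, the C5a receptor (chromosome 7, mm9 16832092 to 16844889, minus strand), was above both controls at 1 time only. The second-time mutant library stood at 11.3 RPKM, against 2.16 and 2.93 in the controls of that time, while the 24 h mutant library (0.765) was below its controls (1.38 and 0.981). The 2 times thus gave 1.80 and -0.30, and the limma value of 0.75 ± 0.506 (SE) had an adjusted p of 0.453. In macrophages C5ar1 was at 53.5 and 74.4 RPKM, in microglia at 10.6 and 8.16, a limma difference of -2.64 ± 0.329 (SE), adjusted p 0.000246. C5ar1 had 3 sites shared by C/EBPα, C/EBPβ and all 3 constructs, the nearest at 1496 and 1510 from the start.

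Its promoter (chr7:16259339-16259588, minus strand, GRCm38.p6) is shown for contrast with C1qb and C1qc: it holds 2 matches to the PU.1 core, in capitals, at -190 to -184 and -72 to -66, and no PU.1 peak lay over the 300 bases around its start in any construct. The nearest was at 265, inside the gene, in empty-vector and mutant-fragment cells.
C5ar1: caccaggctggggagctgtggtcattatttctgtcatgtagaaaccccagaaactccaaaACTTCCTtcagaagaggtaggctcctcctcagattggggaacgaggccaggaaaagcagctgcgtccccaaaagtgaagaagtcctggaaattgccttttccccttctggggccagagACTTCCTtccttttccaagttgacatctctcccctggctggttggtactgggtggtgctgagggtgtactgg
In the other direction C3ar1 and Cfp had a PU.1 peak at the start and no match to this core in the 250 bases searched, which says only that these letters are not in that window.

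**Figure D3:**
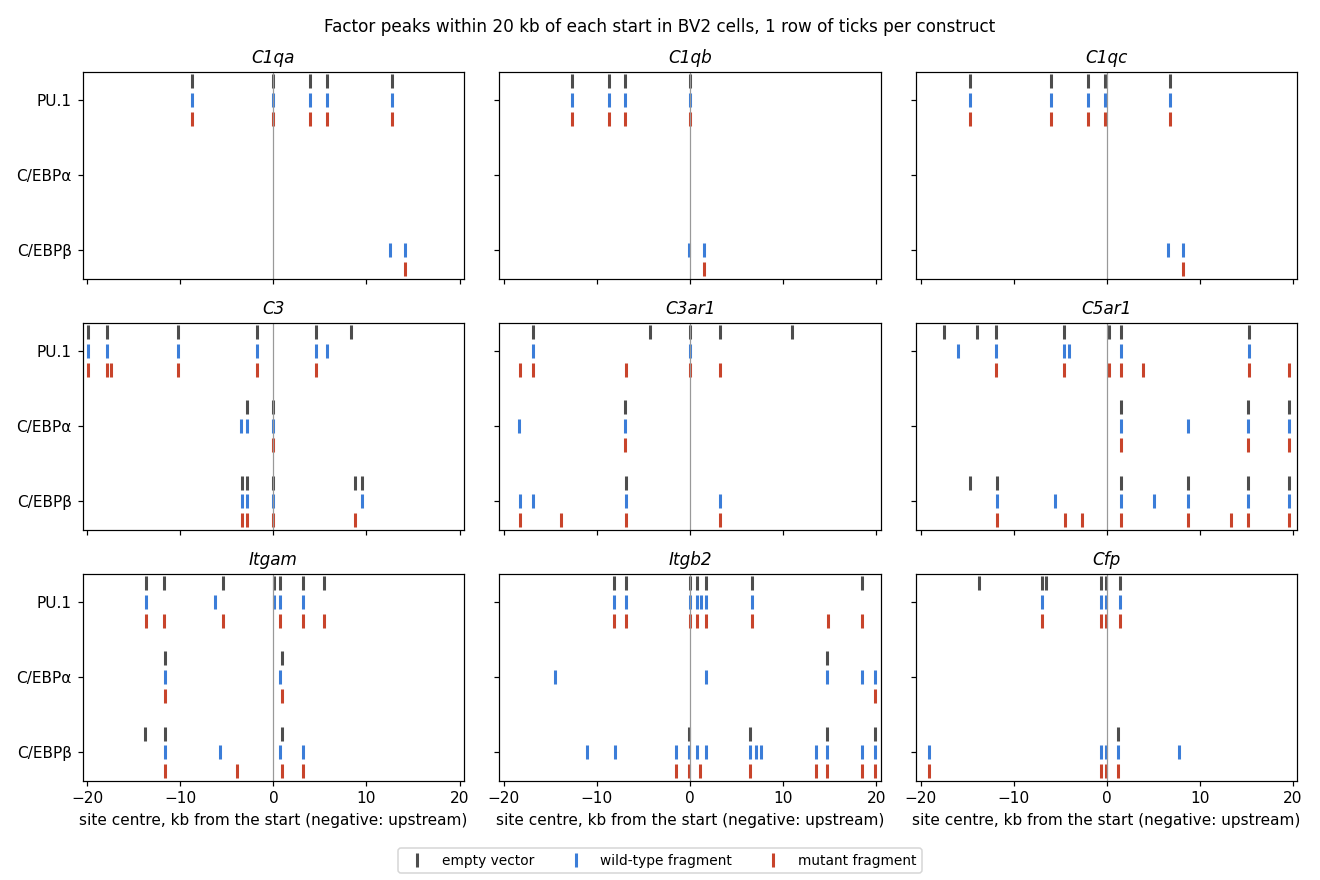
Position of each PU.1, C/EBPα and C/EBPβ site within 20 kb of the start of each complement gene in BV2 cells, in kb from the start (x axis), with 1 row of ticks for each construct (grey empty vector, blue wild-type fragment, red mutant fragment). The C1q genes have PU.1 sites and no C/EBPα site, and C3 has both C/EBP factors and no PU.1 at its start.

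Itgam (CD11b, chromosome 7, mm9 135206154 to 135262005, plus strand) and Itgb2 (CD18, chromosome 10, mm9 76993093 to 77028419, plus strand) form complement receptor 3. In BV2 cells the pair followed each other. Itgam read 23.5 and 16.4 RPKM in empty-vector cells (24 h and second time), 23.6 and 17.3 in wild-type-fragment cells, and 16.9 and 25.5 in mutant-fragment cells. Itgb2 read 26.1 and 15.3, 22.7 and 16.6, and 17.4 and 29.1 in the same order. Both controls were lower at the second time and the mutant library was higher, so that the mutant library was below the controls at 24 h and above them at the second time for both genes.

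The difference from the controls was -0.45 and 0.57 at the 2 times for Itgam and -0.47 and 0.83 for Itgb2. Over both times limma gave 0.06 ± 0.269 (SE) and 0.18 ± 0.329, adjusted p 0.919 and 0.779. Quantile normalization turned the small Itgam value negative (-0.036).

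The ratio of Itgb2 to Itgam was 0.932 to 1.14 in BV2 cells, 0.739 and 0.877 in microglia and 1.49 and 1.64 in macrophages. Itgam stood at 94.6 and 68.2 RPKM in Q7/7 and Q175/175 microglia and at 116 and 106 in macrophages, a limma difference of -0.46 ± 0.236 (SE), adjusted p 0.127, that turned to 0.35 under quantile normalization and 0.28 with median-of-ratios scaling. Itgb2 was at 69.9 and 59.9 in microglia and 173 and 174 in macrophages, a difference of -1.41 ± 0.252, limma adjusted p 0.00171; this call was lost with scaling (adjusted p 0.124 with quantile normalization, 0.102 with median-of-ratios). At the Itgam start, a PU.1 peak centred at 27 was called in empty-vector and wild-type-fragment cells and not with the mutant fragment, while one at 730 was called in all 3. Itgb2 had PU.1 and C/EBPβ peaks together at its start in all 3 constructs (at -46 and -55).

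Counted together, none of the 9 genes passed limma's adjusted p of 0.05 for the mutant fragment against both controls, in a comparison where 0.348% of 10350 genes did (36 genes, 30 higher and 6 lower; 22 and 1 with quantile normalization, 23 and 1 with median-of-ratios scaling). At an unadjusted p under 0.05 there were 5 (C3, C3ar1, Cfp, C1qb and C1qc), where 20.2% of all genes were. All 9 differences were positive, where 49.5% of all genes were, and their median was 0.75, against -0.0035 over all genes. For C5ar1, Itgam and Itgb2 the positive value averages opposite signs at 24 h and the second time (-0.30 and 1.80, -0.45 and 0.57, -0.47 and 0.83). Against the empty vector alone (0.087% of genes called) and against the wild-type fragment alone (0.0676%) no member was called, with 5 and 4 at an unadjusted p under 0.05. The wild-type fragment against the empty vector called no gene in limma (0%, with 66 genes at an unadjusted p under 0.05), and the members' differences had a median of 0.042 with none at that level. These comparisons share their libraries. With limma-trend no member was called in the comparison with both controls either.

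The counts depend on single libraries, of the controls as well as of the mutant fragment. Without the mutant 24 h library limma called 8 members higher, all but C1qa, where 20.4% of all genes were called; without the mutant second-time library it called 4 of 8 tested, C3, C3ar1 and Cfp higher and Itgam lower, where 37.1% were. In both fits the spread comes from the control libraries, and the remaining mutant library is assumed to vary as they do.

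**Figure D4:**
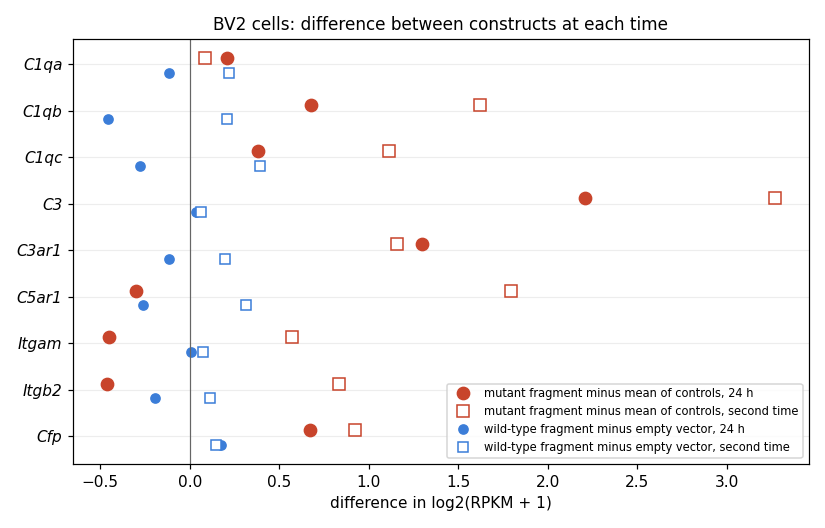
Difference in log2(RPKM + 1) between BV2 constructs for each complement gene, separately at 24 h (filled circles) and the second time (open squares): mutant fragment minus the mean of both controls in red, wild-type fragment minus empty vector in blue, each from 1 library per construct. C3 lies at 2.21 and 3.27, C3ar1 at 1.30 and 1.15, and C5ar1, Itgam and Itgb2 lie on opposite sides of 0 at the 2 times.

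Between the second time and 24 h no gene was called in limma (0%), and 6 members had an unadjusted p under 0.05 (C1qa, C1qb, C1qc, C5ar1 and Cfp higher, C3 lower), where 27.2% of all genes did. With a pseudocount of 5 limma called 444 genes and with no construct term 640, in each case with 1 member among them. Without the mutant 24 h library 6 members were called (3 higher, 3 lower, with 4598 of 10211 genes called) and without the mutant second-time library 5 (2 higher, 3 lower, with 4594 of 10222).

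Across cell sources, limma called 3 members higher in microglia than in macrophages (the C1q chains, where 17% of 11693 genes were higher) and 5 lower (Cfp, C3ar1, C3, C5ar1 and Itgb2, where 44.3% were lower). With quantile normalization the calls over all genes split into 3404 higher and 3265 lower in place of 1988 and 5180, and the members into 3 and 4. Against BV2 controls 7 members were higher in microglia (30.3% of genes were) and 1, Cfp, lower (41.5%), with C3 at -0.36 ± 0.651 (SE), limma adjusted p 0.636. Macrophages were higher than BV2 controls for all 9 (42% of genes were higher and 23.7% lower; after quantile normalization 3890 and 3685 genes), from 2.39 ± 0.264 for Cfp to 4.53 ± 0.285 for C5ar1, limma adjusted p of at most 0.00991. The count was 8 without the Q7/7 macrophage library, with no filter on low values or with all 3 constructs as BV2 cells, the lost gene being C3.

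Between genotypes, 8 of the 9 genes did not pass in the limma fit of Q175/175 against Q7/7 cells, with differences from -0.39 for C1qa to 0.06 for C5ar1 and adjusted p-values of 1.0. Within microglia all 9 were lower in the Q175/175 library, by 0.047 (C3ar1) to 0.87 (C3), and within macrophages 5 were lower and 4 higher, each from 1 library a side with no test. Of the 10687 genes in that fit, 66.4% were lower in the Q175/175 library in microglia (median difference -0.078) and 28.4% in macrophages (median 0.18). Beside them stand the neutrophil markers. All 12 that were measured were lower in Q175/175 than in Q7/7 microglia (median difference -1.30), summing to 586 RPKM against 1835, with S100a8 at 252 against 816 and S100a9 at 217 against 692, and none was at 0. In macrophages 7 of the 12 were lower (summed RPKM 269.6 against 472). Neutrophils are known to carry CD11b, CD18, C5ar1 and properdin. The part of these cells in the microglia values was not tested.

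**Figure D5:**
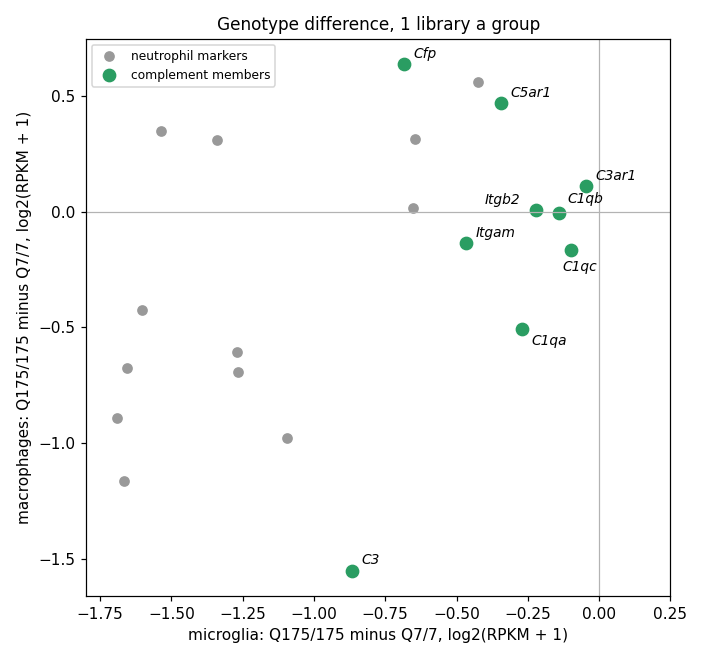
Genotype difference (Q175/175 minus Q7/7, log2(RPKM + 1)) in microglia (x axis) and macrophages (y axis), 1 library per group, for the complement genes (green) and 12 neutrophil markers (grey). All points lie left of 0 in microglia; C3 lies at -0.87 and -1.55, and Cfp at -0.68 and 0.64.

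Peaks near these genes were common in general. In all 3 constructs H3K4me2 lay within 20 kb of 9 of the 9 starts (95.5% of 10350 expressed genes), PU.1 near 9 (79.2%), C/EBPα near 5 (25.9%; not the C1q genes or Cfp) and C/EBPβ near 6 (71%; not the C1q genes). Within 50 kb C/EBPβ was near all 9, a window for which the share of all genes was not computed. Over the 300 bases around the start, a window chosen after the peaks were seen, PU.1 was present in all 3 constructs at 6 of 9 genes (C1qa, C1qb, C1qc, C3ar1, Itgb2 and Cfp), where 8.46% of expressed genes had it. H3K4me2 was there at 8 (48.8%), C/EBPβ at 2, C3 and Itgb2 (11.7%), and C/EBPα at C3 alone. Within 20 kb the C1q genes share sites, so they are not separate counts there.

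Counted once each, the 9 genes had 54 PU.1 sites, of which 53.7% were called in all 3 constructs and 11.1% in mutant-fragment cells only; over the genome these shares were 40.8% and 13.2%. C/EBPβ had 49 sites, 30.6% in all 3 and 12.2% mutant-only (34.3% and 8.1% over the genome), and C/EBPα 17 sites, 35.3% in all 3 and none mutant-only (25.6% and 5.2%). H3K4me2 had 39 sites, 74.4% and 5.1% (64.2% and 11.4%). With 1 library per construct and no peak heights, a site called in 1 construct only has no replicate check.

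Of the other 63 complement genes and integrin partners listed, 57 were in the table and most were too low to test. Hc (C5), C6, C7, C8a and C8b, which form the late part of the cascade, were listed at 0 in all 10 libraries. In each BV2 comparison 16 were tested and none passed in limma, with 4 at an unadjusted p under 0.05 for the mutant fragment against both controls. The largest differences of the mutant fragment from both controls were those of Clu (clusterin, which blocks the terminal complex; 0.89 ± 0.255 (SE), limma adjusted p 0.177), Cr1l (Crry, which limits C3 cleavage; 0.81 ± 0.206, 0.150) and C1ra (a C1r protease; 0.70 ± 0.157, 0.131). C1ra has a near-identical neighbour, C1rb (added after its values were seen), at 0.70 ± 0.138 with a limma adjusted p of 0.117, and the sources used here do not say how shared reads were counted, so both are uncertain. Between genotypes 19 were tested and none passed (1 at an unadjusted p under 0.05), with limma values for Fcnb (ficolin B) at -0.94 (adjusted p 0.0853), Itgal at -0.48 and Itgax at -0.43 (both 1.0) as the largest.

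Between cell sources 21 of these genes were tested in limma. In microglia against macrophages 4 were called higher and 11 lower, where 17% and 44.3% of all genes were. In microglia against BV2 controls 9 were called higher and 7 lower (30.3% and 41.5% of all genes), and in macrophages against BV2 controls 15 higher and 5 lower (42% and 23.7%). Cd93, first described as a C1q receptor, was at 67.5 and 89.4 RPKM in macrophages and at most 0.545 elsewhere, and Cd59a, an inhibitor of the terminal complex, at 17.4 and 8.87 there and at most 0.213 elsewhere. Clu ran the other way, at 21.3 to 59.8 in BV2 cells and 0 to 1.20 in primary cells. C5ar2, the second C5a receptor, was highest in microglia (10.1 and 8.85), unlike C5ar1. BV2 cells also led in Itgax (CD11c, the other CD18 partner that binds C3 fragments), at 15.4 to 49.3 RPKM against 3.50 to 6.76 in primary cells, and in C1qbp, at 57.0 to 92.2 against 1.92 to 7.29.

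The genes whose pattern over the 10 RNA libraries was most like each member are a description of these libraries, which share a cell source, and carry no test. For C1qa they were Il21r, Ppfia4 and Fcrls (Pearson r of 0.994 each), for C1qb Ccm2, Pdgfb and its neighbour C1qc (0.993, 0.993 and 0.992), and for C1qc Nlrp3, Abcc3 and Rcsd1 (0.994, 0.994 and 0.993). C3 had no neighbour as close: Creb5 came first (0.929), then Fas (0.917) and Cd40 (0.910). C3ar1 was nearest to Rragd, Tmem209 and Slfn2 (0.995, 0.993 and 0.992), C5ar1 to Wrb, Pak1 and Myo1f (0.988, 0.986 and 0.981), and Cfp to Csnk2b, Stom and Mrpl33 (0.993, 0.992 and 0.990). Itgam was nearest to AI467606, 1110032A03Rik and Ptpro (0.994, 0.992 and 0.989) and Itgb2 to Cd84, Ifnar2 and Psmb9 (0.991, 0.989 and 0.987), while the r between Itgam and Itgb2 was 0.969. C3 and C1qa gave -0.255.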

How the data were processed

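The authors deposited 1 expression table of RPKM values per RefSeq transcript (mm9) and 12 peak lists. STAR 2.0.3e, HOMER, Bowtie and edgeR are named in the submitters' processing notes; read counts were not used here. Per the file headers, HOMER called peaks in each library separately against an input named after another macrophage source, and the deposited score is 1 for every peak, so peaks were not ranked. A peak site was called shared where intervals overlapped by at least 1 base.

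A symbol's transcript of highest mean RPKM stood for it. A gene entered a fit if 2 or more of its libraries reached an RPKM of 1, and was tested with limma 3.58.1 (R 4.3.3) on log2(RPKM + 1), a scale that understates changes of low genes, with Benjamini-Hochberg adjustment over all genes tested and a threshold of 0.05. BV2 fits had construct and time as terms, since the labels give each construct both times; the genotype fit had cell type. Implied depth came from the whole-read steps of low values (93.8% to 100% within 0.1 reads) and covers counting error only. The limma functions were tested on simulated data. Python 3.11.15 was used for the rest.

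The members, gene lists and tests were chosen with earlier results of these data known. Named genes are all members, list genes past the threshold (at most the 10 with the largest change, or the 3 with the largest change where under 3 passed; for cell sources a part of these) and the 3 most alike genes per member. Alternatives were pseudocounts of 0.5 and 5, no filter, the longest transcript, quantile and median-of-ratios scaling, limma-trend, no time or construct term, other fits of cell source, other peak windows and overlaps, and leaving out each library.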

Additional observations from a re-analysis of the deposited data

Results flagged for a closer look

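Cfp differed between the genotypes in opposite directions in the cell types. In microglia it was lower with Q175/175 than with Q7/7 (0.942 against 2.12 RPKM, a difference of -0.68 on the log2(RPKM + 1) scale), and in macrophages it was higher (92.6 against 59.2 RPKM, 0.64). Each value comes from 1 library a side, and the difference between the cell types was not tested. Beside the microglia value, the summed neutrophil markers were 586 RPKM with Q175/175 and 1835 with Q7/7; their part in it was not tested.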

How the results depend on the processing

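The count of members called for the mutant fragment against both controls was 0 under most settings, 1 with a pseudocount of 5, and 1 to 8 when 1 library was left out; against the empty vector it was 0 to 8 and against the wild-type fragment 1 to 8. In the comparison of times it was 1 with a pseudocount of 5 (444 genes called in all, against 0), 1 with no construct term (640 genes), and 0 to 6 with 1 library left out. For genotype it was 0 with a pseudocount of 5, no filter, quantile normalization or median-of-ratios scaling. Members with C/EBPα within 5 kb in all 3 constructs numbered 3 in place of 5, and those with C/EBPβ 5 within 5 kb and 9 within 50 kb in place of 6. The share of all genes was not computed for the 5 kb and 50 kb windows. Directions turned for Itgam against both controls (-0.036 with quantile normalization, -0.081, -0.055 and -0.45 without the second-time empty-vector, wild-type-fragment or mutant library), Itgb2 (-0.037 and -0.47 without the first or last of these), C5ar1 (-0.30 without the last), Itgam in microglia against macrophages (0.353 with quantile normalization, 0.278 with median-of-ratios) and C3 in microglia against BV2 controls (0.070 without the Q175/175 microglia library). The ranges over left-out libraries were -0.45 to 0.57 for Itgam, -0.47 to 0.83 for Itgb2, -0.30 to 1.80 for C5ar1 and -0.80 to 0.070 for that C3 value. The cause was not tested. Without the replicate block, that is without the time term, no member was called in any of the 4 construct comparisons, as with it, and genes called against the empty vector and the wild-type fragment numbered 3 and 4 in place of 9 and 7. Genes called for the mutant fragment against both controls numbered 36, against 23 with a pseudocount of 5, with quantile normalization or without the time term, 0 with no filter and 87 to 3794 with 1 library left out; for genotype they numbered 36, against 58 with a pseudocount of 0.5 and 0 in the 4 settings above. Leaving out any 1 library also raised the number of all genes called against the empty vector and against the wild-type fragment. The member counts of those fits stand beside that rise, and each such fit leaves 1 construct with a single library. Scaling moved the median of all genes from -0.43 to -0.00040 between microglia and macrophages. For genotype no library could be left out, since no residual degree of freedom remains. Depth limits C1qa in BV2 cells, where 3 reads are 0.199 to 0.259 RPKM.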
